A study of Mus musculus with 6 samples.

Results

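The GATA factors are zinc finger transcription factors that bind DNA through the core word GATA, and a mouse has 6 of them. Gata4, Gata5 and Gata6 are known from endoderm, heart and gut, where GATA4 maintains the gene programme of the proximal small intestine and GATA6 is active in crypt cells. Gata1, Gata2 and Gata3 are best known from blood: GATA1 from erythroid cells, megakaryocytes and mast cells, GATA2 from blood progenitors and endothelium, and GATA3 from T cells and innate lymphoid cells. The 6 loci were examined in ATAC-seq peak lists of intestinal crypts. ATAC-seq cuts open chromatin with the Tn5 transposase, so that a peak marks a stretch of accessible DNA, typically a promoter or an enhancer.

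The study asked how loss of ARID3A, an AT-rich DNA-binding protein, alters chromatin in the crypt. The labels give 3 WT and 3 Arid3a cKO samples of intestinal crypts, with 1 peak list for each. Whether each sample came from a separate animal is not stated, so p-values here measure only the spread between these samples, which may be technical. All animals, WT included, received tamoxifen for 3 consecutive days and were killed 1 month after the first injection. In the cKO the floxed Arid3a alleles were removed by VillinCre-ERT2, a tamoxifen-inducible Cre driven by the villin promoter of the intestinal epithelium, and crypts were taken from the proximal jejunum. Whether the WT animals carried the Cre, their strain and their ages are not given in the sources used here.

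A peak belonged to a GATA locus if its summit, its highest point, lay in the gene body or within 50 kb of either end. By this rule 339 of the 302463 peaks of the 6 lists were at the 6 genes. There were 43, 53 and 66 of them in WT 1, WT 2 and WT 3, and 68, 50 and 59 in cKO 1, cKO 2 and cKO 3. The number followed the length of the whole list, which was shortest in WT 1 (40492 peaks) and longest in cKO 1 (58297 peaks). Of the 339, 242 were at the endodermal genes and 97 at the blood and other genes. Peaks of the 6 lists that overlapped by at least 1 base were merged into 71286 consensus peaks, of which 85 were at the GATA loci.

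The labelled tissue was checked by promoter peaks, meaning summits from 1000 bp upstream to 100 bp downstream of an annotated transcription start. Promoter peaks of Cdh1, Vil1 and Cdx2 among 6 epithelial genes, and of Olfm4, Axin2 and Mki67 among 5 crypt genes, were called in all 6 samples, and each of these 11 genes was called in at least 1. None of 6 T cell and innate lymphoid genes, 3 B cell genes and 3 enteric nervous system genes had one in any sample. Of 6 mast cell, eosinophil and myeloid genes Kit alone had one, in cKO 1. Erythroid Klf1 and Hbb-bt and endothelial Pecam1, Cdh5 and Tek had none, whereas mesenchymal Pdgfra and Col1a1 had one in all 6 samples. The promoter of Arid3a itself was called in all 6 samples, which checks no label, since the promoter may lie outside the floxed part. WT 1 was the list least like the rest, with correlations of rank scores of 0.77 to 0.88 with the other 5 over the 32748 peaks called in all samples.

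The DNA under 6 of the peaks is printed here because the comparisons below turn on them. The sequences are GRCm38 reference, 5′ to 3′ on the strand of the gene (minus for all 6), within 100 bp of the summit, with exon bases left out and with 5 sets of words in capitals where they occur. The words were searched on both strands. GATA factors were given the word AGATAA as well as the word AGATAG, then the word TGATAA and also the word TGATAG. ARID3 proteins were given the word ATCAAA as well as the word ATTAAA. HNF4 was given the word CAAAGTCCA as well as the word CAAAGTTCA. AP-1 was given the word TGACTCA, which is its other form TGAGTCA on the opposite strand. CDX factors were given the word TTTATGG as well as the word TTTATTG. The Gata4 upstream peak (chr14:63287462-63287662) was the strongest peak nearest to Gata4 and carries 1 GATA word, read on the other strand.
Gata4 upstream: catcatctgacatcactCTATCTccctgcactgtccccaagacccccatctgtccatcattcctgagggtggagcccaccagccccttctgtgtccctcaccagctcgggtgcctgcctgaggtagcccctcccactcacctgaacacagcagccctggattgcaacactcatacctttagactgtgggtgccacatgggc
The Gata4 intron peak (chr14:63261318-63261518) carries 2 GATA words, the most found under a Gata4 peak shared by all samples.
Gata4 intron: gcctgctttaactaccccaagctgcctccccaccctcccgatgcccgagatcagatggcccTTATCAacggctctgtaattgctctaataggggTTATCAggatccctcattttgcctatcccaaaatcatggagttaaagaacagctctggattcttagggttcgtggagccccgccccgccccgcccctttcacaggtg
The Gata4 first intron stretch (chr14:63271473-63271583) lies under the peak at the 5′ end of the gene and begins at the exon edge, next to an AP-1 word.
Gata4 first intron: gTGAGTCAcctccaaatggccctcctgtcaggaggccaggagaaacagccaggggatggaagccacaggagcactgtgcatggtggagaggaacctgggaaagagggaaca
The Gata5 promoter (chr2:180334700-180334873) is rich in G and C, at 71.3%, and has none of the words.
Gata5 promoter: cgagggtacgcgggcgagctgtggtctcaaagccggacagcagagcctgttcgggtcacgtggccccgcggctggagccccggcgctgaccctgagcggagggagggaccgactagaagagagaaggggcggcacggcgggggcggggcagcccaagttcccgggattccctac
The Gata3 internal peak (chr2:9879640-9879840) was the strongest peak called in every sample whose nearest start was that of Gata3, and has 1 AP-1 word.
Gata3 internal: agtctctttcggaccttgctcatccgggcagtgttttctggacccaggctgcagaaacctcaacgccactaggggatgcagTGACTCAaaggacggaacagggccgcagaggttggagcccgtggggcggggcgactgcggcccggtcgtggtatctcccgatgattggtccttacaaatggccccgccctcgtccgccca
The Gata1 upstream peak (chrX:7981515-7981715) was the only peak nearest to a Gata1 start and holds 1 ARID3 word and 1 HNF4 word.
Gata1 upstream: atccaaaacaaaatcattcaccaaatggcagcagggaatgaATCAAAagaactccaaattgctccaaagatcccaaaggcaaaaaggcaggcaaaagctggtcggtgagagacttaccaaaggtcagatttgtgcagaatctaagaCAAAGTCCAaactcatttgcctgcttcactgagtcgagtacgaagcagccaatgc

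Accessible chromatin was denser at the endodermal genes than at the blood and other genes, in both genotypes. Summed over Gata4, Gata5 and Gata6, there were 7.93, 8.66 and 11.8 peaks per 100 kb in WT 1, WT 2 and WT 3, and 11.1, 8.90 and 9.86 in cKO 1, cKO 2 and cKO 3. Over Gata1, Gata2 and Gata3 the same samples had 2.74, 4.66 and 4.66, and 6.03, 3.56 and 4.93. Endodermal density exceeded the other in 6 of 6 samples, by 5.27 ± 1.02 peaks per 100 kb (SD, n = 6), and the lowest endodermal value lay above the highest other value. The excess was 5.44 ± 1.57 in WT and 5.10 ± 0.208 in cKO (SD, n = 3 each). Counting only peaks whose nearest transcription start was that of the gene in question, 20.7 ± 2.80 peaks per sample were endodermal and 4.83 ± 1.72 were at the others (SD, n = 6).

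Within the family the order by mean density was Gata4, Gata5, Gata6, Gata1, Gata2 and Gata3. Gata4 had 12.7 ± 1.32 peaks per 100 kb, a value above that of 97.4% of 21881 protein-coding genes measured in the same way. Gata5 had 9.13 ± 2.16 (above 88.2% of genes) and Gata6 had 6.24 ± 1.75 (above 71.3%). Gata1 had 5.19 ± 0.984, Gata2 had 4.12 ± 1.99 and Gata3 had 4.01 ± 1.03 (SD over 6 samples for each), above 63.2%, 54.0% and 52.8% of genes, whose median was 3.72. Gata4 lay above Gata5, and Gata5 above Gata6, in 6 of 6 samples. Gata6 lay above Gata1 in 4 of 6, by 1.05 ± 1.53, and Gata2 above Gata3 in 3 of 6, by 0.113 ± 1.65 (SD, n = 6 throughout), and Gata1 above Gata2 in 5 of 6, by 1.07 ± 1.25, so these neighbours did not differ beyond their spread.

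**Figure D1:**
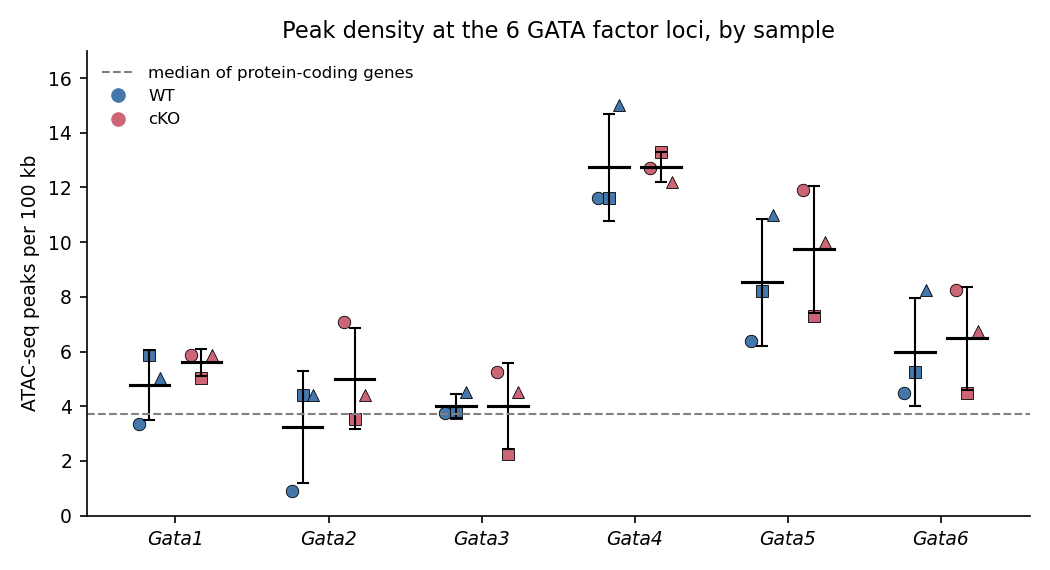
ATAC-seq peaks per 100 kb (vertical axis) in the window of each GATA gene, 1 point per sample (circle, square and triangle for replicates 1, 2 and 3), with the mean and SD of 3 WT (blue) and 3 cKO (red) samples; the dashed line is the median of protein-coding genes, 3.72. Gata4 sits at 11.6 to 15, Gata3 at 2.26 to 5.26, and at every gene the genotypes overlap.

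Genotype did not separate the samples by the number of peaks at any of the 6 loci. Gata4 had 20, 20 and 26 peaks in WT and 22, 23 and 21 in cKO, with the same mean of 22.0 (exact two-sided permutation test, p = 1.00). Gata5 had 7, 9 and 12 against 13, 8 and 11, and Gata6 6, 7 and 11 against 11, 6 and 9, with differences of 1.33 (exact p = 0.7) and 0.667 (exact p = 1.00). Gata1 went from 4, 7 and 6 to 7, 6 and 7, Gata2 from 1, 5 and 5 to 8, 4 and 5, and Gata3 from 5, 5 and 6 to 7, 3 and 6. Their exact p-values were 0.7, 0.6 and 1.00. A comparison of 3 samples with 3 others cannot give a p below 0.1, so no locus could pass 0.05. The counts of the genotypes overlapped at all 6 loci. Over all protein-coding gene windows, 0.430% had fewer peaks in every cKO than in every WT sample and 1.14% had more.

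Of the 85 consensus peaks, 32 (37.6%) were called in all 6 samples, beside 45.9% of all consensus peaks. The share was 25 of 59 (42.4%) at the endodermal genes and 7 of 26 (26.9%) at the others. Gata4 had 15 of 30, Gata5 7 of 14, Gata6 3 of 15, Gata1 3 of 7, Gata3 3 of 10 and Gata2 1 of 9. A further 19 were called in 1 sample, as were 20.9% of all consensus peaks. No GATA peak was called in all 3 cKO and no WT sample, a pattern that 0.464% of all consensus peaks showed, and none in all 3 WT and no cKO sample, shown by 0.111%. A percentile here is the rank of a peak, within its own list, by the column of the list read as fold over background, with the strongest peak at 100. A weak peak in an intron of Gata5 (chr2:180329033-180329829) was called in cKO 1 and cKO 3, at percentiles 4.98 and 1.98, and not elsewhere. Peaks in all 3 cKO samples and 1 WT sample were a peak 121 kb from the Gata4 5′ end, in an intron of Fdft1 (25.8 in WT 3 and 16.4, 18.8 and 16.5 in cKO), and the Gata1 upstream peak described below. The share of all consensus peaks with that pattern was not computed, and the lists differed in length.

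**Figure D2:**
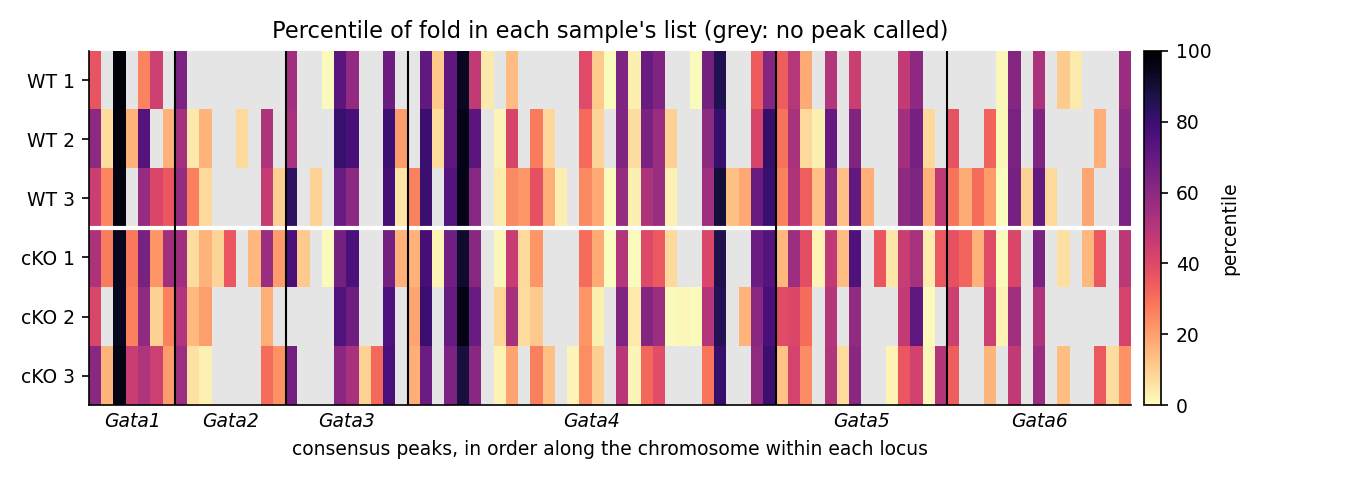
Percentile (colour) of each of the 85 consensus peaks (columns, ordered along the chromosome within each locus) in each of the 6 samples (rows, WT above the white line and cKO below it), with grey where no peak was called. The dark columns are peaks strong in every sample, and no column is filled in 1 genotype and empty in the other.

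Most GATA peaks lay away from promoters. Of the 85 summits 43 were in introns, 29 between genes, 5 in coding exons, 4 in untranslated exons and 4 in noncoding exons. The nearest transcription start was that of the GATA gene for 39 of them, 31 of 59 at the endodermal genes and 8 of 26 at the others. Another 6 lay at the promoter of a neighbouring gene, and these included the strongest peaks of several windows. Levels that refer to a window as a whole therefore include neighbours. Among them were Hdac6 near Gata1, Taf3 near Gata3, Fdft1 and Neil2 near Gata4, Rbbp8nl near Gata5 and 1010001N08Rik near Gata6.

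**Figure D3:**
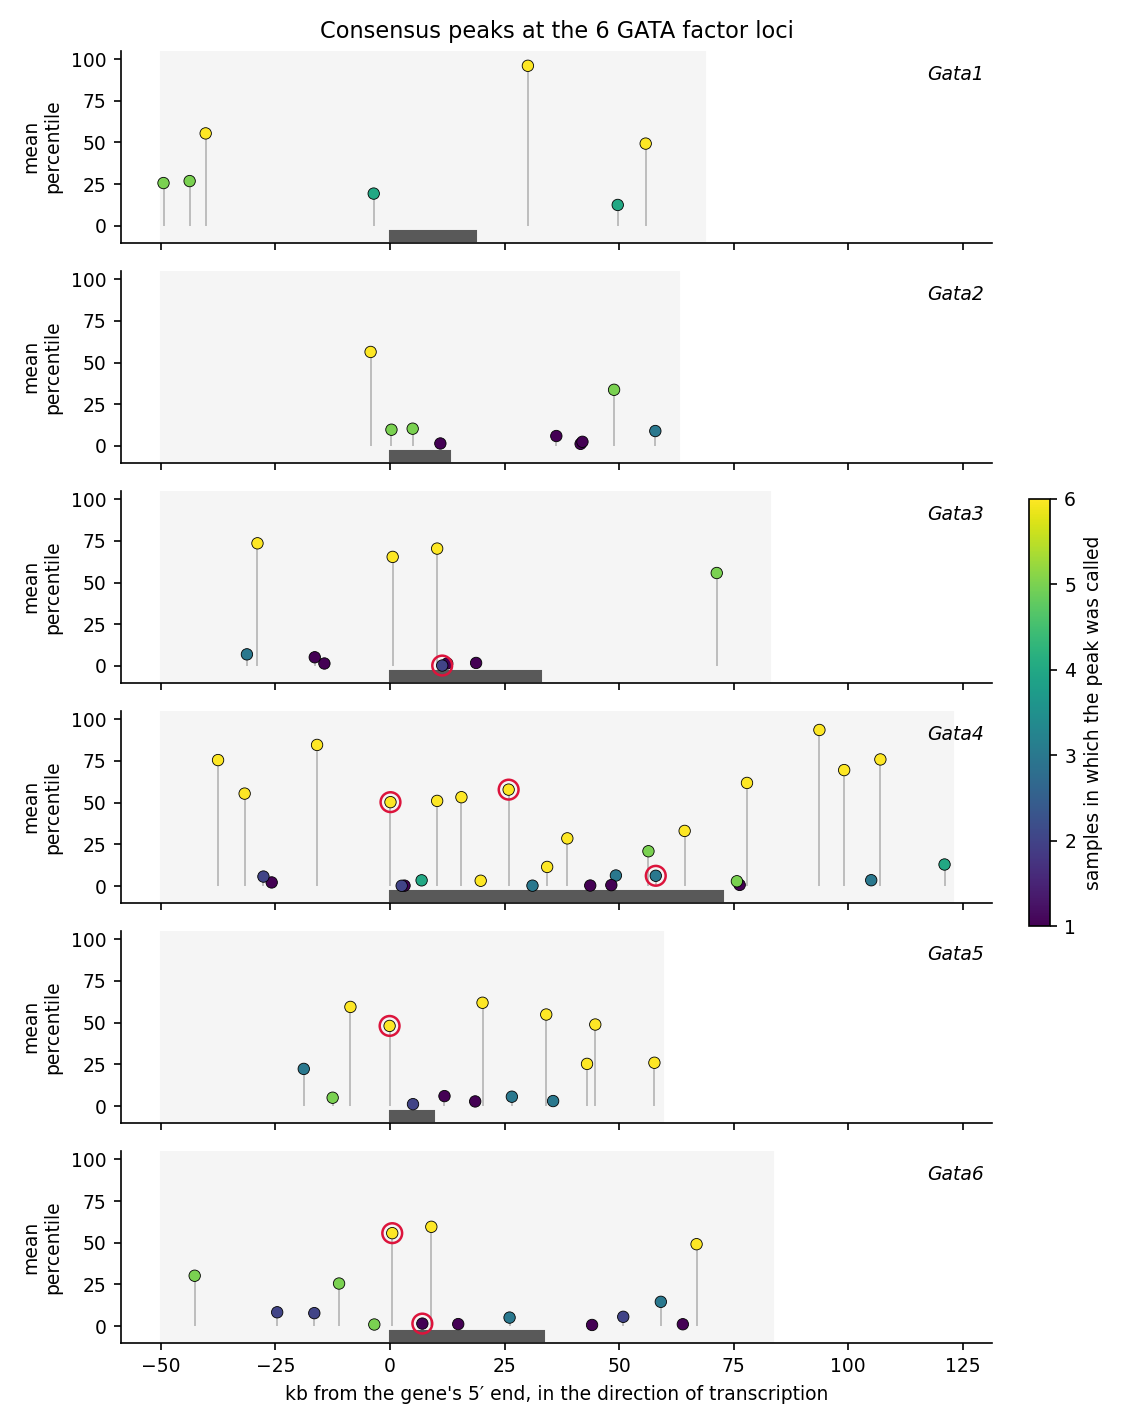
Consensus peaks at each GATA gene, by distance in kb from the 5′ end of the gene in the direction of transcription (horizontal axis) and by mean percentile over 6 samples with 0 where not called (vertical axis). Colour gives the number of samples in which the peak was called, dark bars the gene bodies, grey fields the windows searched and red rings the promoter peaks. Gata4 carries a series of peaks shared by all samples through its body and upstream of it, while Gata1 has no peak inside its body.

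Under the promoter definition above, promoter peaks were called in more samples at Gata4, Gata5 and Gata6 than at the other genes. Density did not separate Gata6 from Gata1 beyond its spread. A promoter peak in all 6 samples was found at 44.5% of protein-coding genes. Gata4 and Gata6 had one in 6 of 6 samples and Gata5 in 5 of 6. In cKO 2 the Gata5 peak was also called, but its summit fell just inside the gene and outside the promoter limits. Gata1 had none in any sample. Gata2 had one in cKO 1 and cKO 3 only, at percentiles 6.76 and 6.06, and Gata3 in cKO 1 only, at 1.10, where WT 1 had an overlapping peak at 0.531 with its summit outside the promoter limits. The calls at Gata2 and Gata3 hung on the definition: peaks that simply covered an annotated start numbered 4 of 6 samples at Gata2 and 3 of 6 at Gata3.

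Gata4 (chr14:63198922-63271692, minus strand) encodes the GATA factor most closely tied to the jejunum, and its window held the largest number of peaks. Its 5′-most peak (chr14:63270403-63272199) had percentiles of 65.8, 59.9 and 55.7 in WT and 41.2, 50.6 and 28.6 in cKO. A peak at an internal start 25.9 kb into the gene (chr14:63244758-63246736) had percentiles of 63.4, 63.0 and 57.7 in WT and 50.7, 63.0 and 49.0 in cKO. At the 5′ end each cKO sample lay below each WT sample on this scale, though not once scores were taken among shared peaks alone, and at the internal start cKO 2 lay among the WT samples. A further peak at an internal start, 58.0 kb into the gene (chr14:63213234-63213819), was weak, at 21.8 in WT 3 and 7.73 and 7.38 in cKO 1 and cKO 2, and was not called in the other samples. The strongest peak of its own was the Gata4 upstream peak, 15.9 kb from the 5′ end (chr14:63286941-63288328), with percentiles of 85.8, 80.6 and 89.6 in WT and 86.0, 84.6 and 81.0 in cKO. A second peak 37.5 kb upstream had 61.8, 80.9 and 80.7 in WT and 73.7, 76.2 and 79.8 in cKO. The nearer upstream peak ranked above the promoter peaks at the 5′ end and at 25.9 kb in 6 of 6 samples and the farther one in all but WT 1, and the genotypes overlapped at both.

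Inside Gata4, the intron peak with 2 GATA words, 10.3 kb from the 5′ end, had percentiles of 63.1, 56.6 and 56.7 in WT and 35.3, 55.9 and 38.7 in cKO. Another intron peak at 15.6 kb had 68.5, 64.7 and 52.7 in WT and 40.0, 61.8 and 31.9 in cKO. In both, cKO 1 and cKO 3 were low and cKO 2 was close to WT. The other tested peaks of the window that ranked highest were promoter peaks of Fdft1, which encodes squalene synthase, at 93.7 kb and 107 kb, with mean percentiles of 93.6 and 75.9 over 6 samples.

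Gata5 (chr2:180325133-180334699, minus strand) encodes a GATA factor known from differentiated gut epithelium and heart. Its promoter peak (chr2:180333807-180335833) had percentiles of 46.7, 54.5 and 59.3 in WT and 45.5, 46.7 and 35.7 in cKO. The lowest WT and the highest cKO percentile both rounded to 46.7, and with scores taken among shared peaks alone every cKO sample lay below every WT sample. A peak 8.62 kb upstream (chr2:180342406-180344551) was stronger, at 59.5, 65.4 and 63.6 in WT and 53.9, 71.3 and 43.0 in cKO. The highest mean, 62.0, belonged to a peak 20.2 kb from the 5′ end on the downstream side (chr2:180314100-180315056), at 44.9, 62.3 and 70.4 in WT and 75, 58.6 and 60.5 in cKO. Thus the genotypes overlapped at the last pair, with WT 1 lowest at the downstream peak and cKO 3 lowest at the upstream one.

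Gata6 (chr18:11052064-11085635, plus strand) encodes a factor active in crypt progenitors. Its promoter peak (chr18:11051336-11053532) had percentiles of 61.6, 64.1 and 65.4 in WT and 41.4, 55.0 and 47.0 in cKO, with every cKO sample below every WT sample. The summit lay on a start of the neighbouring 1010001N08Rik and 59 bp from a start of Gata6. By nearest start the peak was therefore not counted to Gata6, and the lists cannot assign it to either gene alone. A promoter peak at an internal start, in a coding exon 7.07 kb into the gene (chr18:11058977-11059236), was called in WT 3 alone, at 9.21. An intron peak 9.03 kb from the 5′ end (chr18:11060773-11061454) had 52.4, 62.5 and 70.0 in WT and 64.6, 51.4 and 56.4 in cKO. A peak 66.9 kb from the 5′ end, beyond the gene (chr18:11118862-11119535), had 56.3, 60.7 and 64.3 in WT and 48.6, 42.1 and 22.8 in cKO. It was the lowest of the 3 in cKO 2 and cKO 3, and again no cKO value reached the WT range.

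Gata1 (chrX:7959260-7978071, minus strand), the erythroid factor, had no peak in its body or promoter in any sample. The strongest peak of its window was the promoter of Hdac6, a cytoplasmic deacetylase (chrX:7947426-7948605), at percentiles 98.4, 97.0 and 96.6 in WT and 94.0, 94.1 and 95.8 in cKO. The next in mean percentile also lay nearest to other genes, in an intron of Glod5 (25.5, 73.5 and 57.8 in WT and 65.0, 59.2 and 51.7 in cKO) and in an exon of Pcsk1n (36.6, 60.1 and 45.1, and 52.3, 41.2 and 60.7). The genotypes overlapped at both. The Gata1 upstream peak, 3.54 kb from the 5′ end, was called in WT 2 alone among WT samples, at 16.1, and in cKO 1, cKO 2 and cKO 3 at 28, 26.5 and 45.6. Scored as 0 where not called, it averaged 5.37 ± 9.30 over WT and 33.4 ± 10.6 over cKO samples (SD, n = 3 each; exact permutation p = 0.1, the smallest possible). The peak was named after its values were seen, and the share of all genes with such a separation at their nearest-start peaks was not computed. WT 2 had the peak and WT 1 and WT 3 did not, so the call itself did not follow genotype.

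Gata2 (chr6:88193891-88207032, plus strand), the progenitor factor, had 1 peak shared by all samples, 4.22 kb upstream in an intron of Gm38708, at 63.7, 54.0 and 57.7 in WT and 55.8, 50.8 and 56.1 in cKO. Its peaks just inside the 5′ end (0.328 kb) and at 4.96 kb were called in 5 of 6 samples, not in WT 1, with mean percentiles of 9.72 and 10.3, near the bottom of the lists. A peak 48.9 kb from the 5′ end, in an intron of Dnajb8 (chr6:88242554-88243239), was not called in WT 1 either and had 51.6 and 46.4 in WT 2 and WT 3 and 56.8, 16.6 and 30.6 in cKO, so the genotypes overlapped. Gata3 (chr2:9857078-9890034, minus strand), the T cell factor, had the strongest peaks close to its body among these 3 genes. The Gata3 internal peak, 10.3 kb from the 5′ end, had 72.5, 80.4 and 68.9 in WT and 65.9, 74.4 and 60.2 in cKO. A peak 0.596 kb from the 5′ end, in an exon of the neighbouring 9230102O04Rik, had 58.6, 77.3 and 60.0 in WT and 75.9, 67.3 and 53.3 in cKO. The promoter peak of Taf3, 28.9 kb upstream, had percentiles of 74.7 ± 6.17 in WT and 72.4 ± 5.68 in cKO (SD, n = 3 each), and the genotypes overlapped. All 3 were called in every sample, although no T cell or innate lymphoid marker had a promoter peak in any sample. Which cells gave the Gata3 peaks was not tested.

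**Figure D4:**
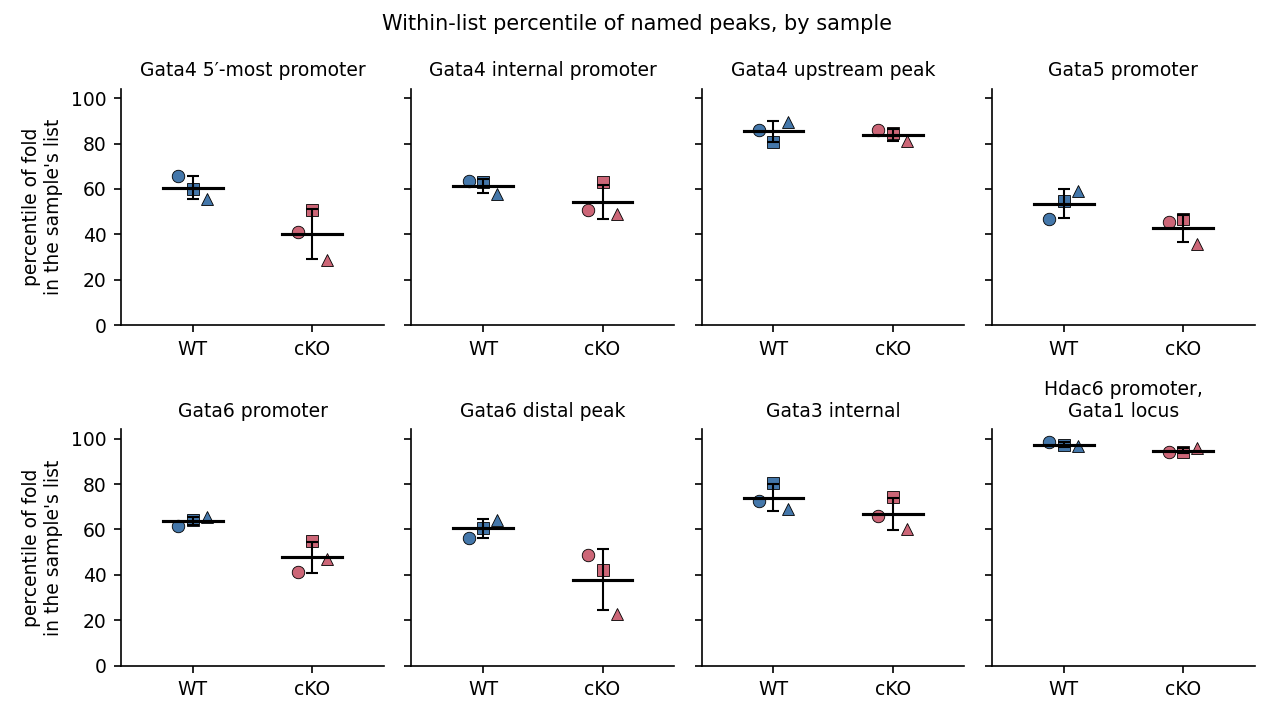
Percentile of fold within the list of each sample (vertical axis) for 8 peaks, 1 point per sample (circle, square and triangle for replicates 1, 2 and 3) with mean and SD of 3 WT and 3 cKO samples. The Gata4 upstream peak stays between 80.6 and 89.6 in every sample, while the Gata6 distal peak, 66.9 kb from the 5′ end, spans 56.3 to 64.3 in WT and 22.8 to 48.6 in cKO.

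The strongest peak of each window was compared by genotype in the same way as the counts. Its percentile was 97.3 ± 0.953 in WT and 94.6 ± 0.993 in cKO at Gata1, which is the Hdac6 promoter, and the genotypes did not overlap (exact p = 0.1). Such a pattern, lower in every cKO sample, was seen at 4.87% of protein-coding gene windows and the opposite at 3.76%. The other loci overlapped. Gata6 had 65.3 ± 4.29 and 58.7 ± 5.17 (exact p = 0.3), Gata4 94.9 ± 1.17 and 92.2 ± 3.91 (exact p = 0.4), and Gata5 66.5 ± 6.03 and 68.9 ± 7.55 (exact p = 0.5). Gata2 had 58.4 ± 4.92 and 54.6 ± 3.31 (exact p = 0.4) and Gata3 78.7 ± 5.56 and 76.0 ± 0.837 (exact p = 0.5; SD, n = 3 each).

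For peaks called in all 6 samples, ranks were turned into normal scores within each list and compared by limma across all 32748 such peaks, 32 of them at the GATA genes. A shift is the cKO mean minus the WT mean of these scores. None of the 32 passed an adjusted p of 0.05, with a lowest adjusted p of 0.657, and over all peaks the share passing was 0% higher and 0% lower in cKO, with a lowest adjusted p of 0.567. At an unadjusted p under 0.05 there were 2 of 32 lower in cKO and 0 of 32 higher, beside 2.39% lower and 4.83% higher over all peaks. They were the Gata6 peak at 66.9 kb, with a shift of -0.71 ± 0.28 (SE; limma adjusted p = 0.657), and the 5′-most Gata4 peak, with a shift of -0.62 ± 0.29 (SE; limma adjusted p = 0.688). With ranks by the p-value column the Gata4 peak had a shift of -0.17 and no longer had an unadjusted p under 0.05. The 2 that did were the Gata6 peak at 66.9 kb (-1.02) and the Hdac6 promoter (-0.25). Over all peaks 3.65% were lower and 3.59% higher at that p with these ranks. The smallest p in the other direction was at a peak 43.0 kb from the Gata5 5′ end, on the downstream side, with a shift of 0.43 ± 0.30 (SE; limma adjusted p = 0.721). The Gata6 promoter had -0.53 ± 0.27 (SE; limma adjusted p = 0.690).

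The sign of the shift leaned one way at the GATA peaks. It was negative, lower in cKO, for 25 of 32 (78.1%), beside 53.6% of all shared peaks, and the median was -0.17 beside -0.03. Negative shifts made up 20 of 25 at the endodermal genes, with 12 of 15 at Gata4, 5 of 7 at Gata5 and 3 of 3 at Gata6, and 5 of 7 at the others. Peaks share samples and neighbouring peaks are not independent, so the count carries no test. It rested on ranking by fold: with ranks by the p-value column of the same lists, 17 of 32 (53.1%) were negative beside 49.7% of all peaks, and the median was -0.01. Among the 32, 5 had every cKO score below every WT score (6.08% of all peaks) and 0 had the reverse (5.86% of all peaks). The 5 were the Hdac6 promoter, the Gata5 promoter, the Gata6 promoter, the Gata6 peak at 66.9 kb and a peak 34.1 kb from the Gata5 5′ end (chr2:180300158-180301500; percentiles 50.5, 69.4 and 61.1 in WT and 47.2, 50.3 and 50.9 in cKO). At the last peak the separation held for scores among shared peaks, while the percentiles in the whole lists overlapped, with cKO 3 above WT 1.

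Some promoters of the epithelial and crypt markers also had lower percentiles in cKO. With 0 where not called, 3 of the 11 marker promoters were lower in every cKO than in every WT sample and 0 were higher. The share over all promoters was not computed. A share on another measure was available, from scores among peaks of any kind called in all 6 samples. Of these peaks, 6.08% had every cKO score below every WT score and 5.86% the reverse. The former share was 3.36% where the summit window held 30 to 40% G and C and 8.05% at 70 to 80%. The 3 lower promoters were Cdx2, an intestinal homeobox factor (71.6, 74.2 and 73.4 in WT and 57.4, 69.1 and 58.3 in cKO), the adhesion molecule Epcam (67.7, 68.9 and 73.8, and 57.7, 62.6 and not called) and the Wnt target Axin2 (80.8, 63.4 and 68.2, and 55.7, 59.6 and 56.3). Lgr5, a stem cell marker, was called in WT 1 and WT 3 and in no cKO sample. Percentiles summed over the 6 epithelial promoters ran from 290 to 306 in WT and from 175 to 284 in cKO, and over the 5 crypt promoters from 262 to 370 and from 211 to 278. Their part in the shifts at the GATA peaks was not tested.

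Shifts over all shared peaks moved with base composition, and counts at the GATA peaks moved with the samples kept. Over all shared peaks the median shift fell from 0.09 where the summit window held 30 to 40% G and C to -0.14 at 70 to 80%, and the negative share rose from 39.4% to 68.8%. The summit windows of all 85 GATA consensus peaks, tested or not, had a median of 54.7% G and C, beside 51.2% over all consensus peaks. With scores taken within deciles of G and C content, chosen after these values were seen, 23 of 32 (71.9%) GATA peaks were negative. The share over all shared peaks was 53.5%. The median at the GATA peaks was -0.18, beside -0.17 without the deciles. Leaving out cKO 2, whose list was nearer to WT 1 than the other cKO lists were (0.88 against 0.77 and 0.80), left 6 of 33 peaks (18.2%) at an unadjusted p under 0.05, all lower in cKO, beside 9.28% lower and 9.40% higher over all shared peaks. Leaving out cKO 3 left 0 of 33, beside 1.02% lower and 2.69% higher. None passed after adjustment in either case. Fewer cells with an open site and less opening per cell cannot be told apart in these bulk samples.

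**Figure D5:**
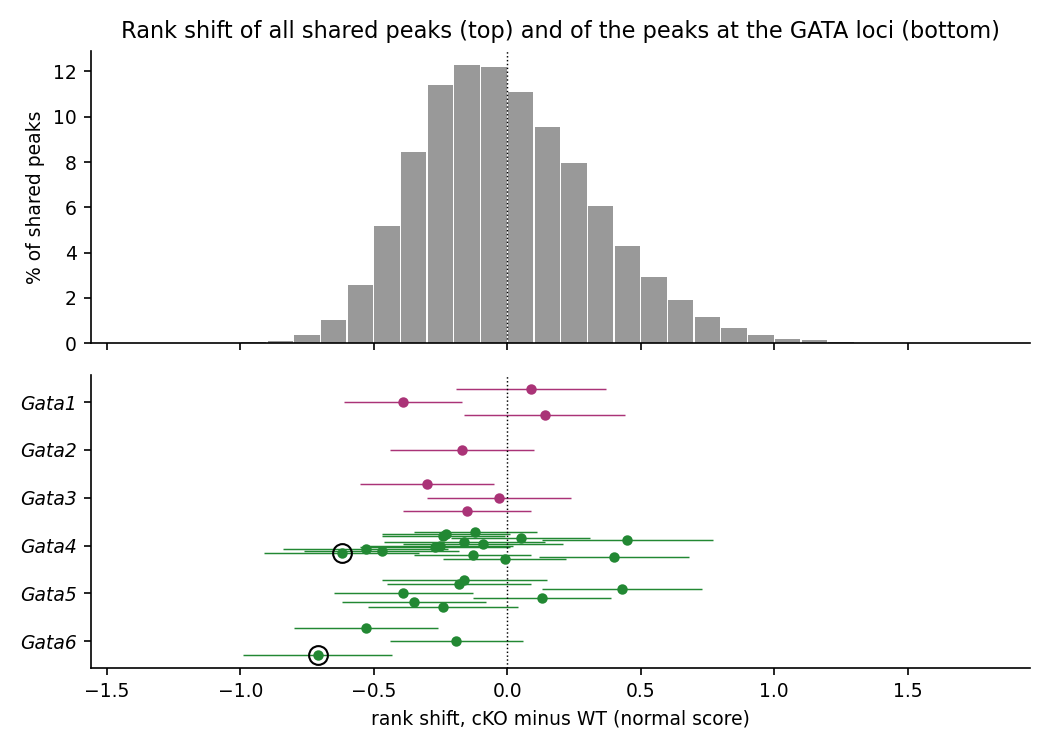
Top, percent of all 32748 shared peaks by rank shift, cKO minus WT, in normal score units (horizontal axis, bins of 0.1). Bottom, the shift ± SE of each of the 32 shared peaks at the GATA loci (purple for blood and other genes, green for endodermal genes), with black rings on the peaks with an unadjusted limma p under 0.05. Of the 32 points 25 lie left of 0, and the ringed points are at -0.71 (Gata6) and -0.62 (Gata4).

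Words for transcription factors were counted within 100 bp of the 85 summits, as a description. GATA words were present under 26 (30.6%), beside 30.2% of all consensus peaks. By gene they were under 8 of 14 peaks at Gata5, 5 of 15 at Gata6, 6 of 30 at Gata4, 3 of 7 at Gata1, 2 of 9 at Gata2 and 2 of 10 at Gata3. ARID3 words were under 7 (8.24%, beside 16.1% of all peaks). Among them were the Gata6 peak at 66.9 kb, the Gata1 upstream peak shown above and the Fdft1 peak at 93.7 kb, where the genotypes overlapped. A link between these words and the shifts was not tested. AP-1 words were under 9 (10.6%, beside 8.11%), CDX words under 7 (8.24%, beside 8.47%) and HNF4 words under 2 (2.35%, beside 2.52%). Gata4 held 5 of the 9 AP-1 peaks, including its 5′-most peak, whose word is visible at the start of the Gata4 first intron sequence. There the word overlaps the splice donor at the exon edge, and whether AP-1 binds it was not tested. The Gata4 and Gata5 promoters carried no GATA word in these windows.

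Cofactors and relatives of the GATA factors were measured with the same windows. Zfpm1, a cofactor that binds GATA factors directly, had 15, 17 and 20 peaks in WT and 17, 19 and 14 in cKO, a density above that of 94.4% of protein-coding genes. Zfpm2, its close relative, had a single peak, in cKO 2, in a window of 550 kb. Trps1, a repressor with a GATA-type finger, had 0 to 2 peaks, and its strongest had percentiles of 16.1 and 25.2 in WT 2 and WT 3, none in WT 1, and 36.6, 60.6 and 31.4 in cKO (exact p = 0.1, the smallest possible). Gatad1, Gatad2a and Gatad2b, which encode chromatin complex subunits, had promoter peaks in all 6 samples, at percentiles from 84.0 to 98.0. Of these 6 genes Trps1 had a strongest peak higher in every cKO sample, and Zfpm1 (95.6 ± 2.73 in WT, 90.2 ± 2.58 in cKO) and Gatad2b (96.2 ± 1.01 and 93.6 ± 0.991; SD, n = 3 each) had one lower in every cKO sample, each at the limit of the exact test (p = 0.1). In Zfpm1 and Gatad2b these were peaks nearest to the start of a neighbour. Among peaks nearest to their own starts, the strongest overlapped between genotypes at Zfpm1 (means of 77.8 in WT and 70.3 in cKO, with cKO 2 highest at 81.1, exact p = 0.4) and at Gatad2b (90.8 ± 3.88 and 88.9 ± 4.79, exact p = 0.6), while that of Gatad2a was lower in every cKO sample (92.5 ± 3.04 and 86.3 ± 2.21, exact p = 0.1; SD, n = 3 each). No gene could pass 0.05 in that test. Over all protein-coding gene windows, the strongest peak was higher in every cKO sample at 3.76% and lower in every cKO sample at 4.87%. Such a share was not computed for peaks nearest to their own starts.

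Among genes known as GATA targets in the gut, Fabp1, Si (Sis in the annotation), Slc10a2, Lct and Fabp6, peak numbers overlapped between genotypes at all 5. The promoter of Si, sucrase-isomaltase, was called in 5 of 6 samples at 79.5 to 91.9, and that of Fabp1, a fatty acid binding protein, in 5 of 6 at 28.8 to 55.9. Slc10a2, the ileal bile acid transporter, had a promoter peak in 6 of 6 at 14.0 to 49.8. Lct, lactase, and Fabp6, the ileal bile acid binding protein, had none in any sample, and their windows drew their peaks from neighbouring genes.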

How the data were processed

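ATAC-seq peak lists of 3 WT and 3 Arid3a cKO crypt samples were analysed. The authors ran the nf-core/atacseq pipeline (Trim Galore, BWA, GRCm38, Ensembl 95, mm10 blacklist) and called narrow peaks with MACS2 in each sample; versions of MACS2 are not given in the sources used here, nor is an input control. The deposited lists name no columns and were read in the order MACS2 writes: a fold over local background, which is a ratio, a -log10 p and a -log10 q value, and a score that the authors' caller derived from the q value. The deposited lists hold 40492 to 58297 peaks on 21 chromosomes and no read counts, so depth per sample is unknown and no counting interval was given. Fold was used only as a rank within a list. Genes, starts and exons came from GENCODE M21 and bases from the GRCm38 FASTA. Consensus peaks were lists merged at an overlap of at least 1 base, placed by the summit of the strongest peak. Loci were compared by exact permutation over samples, and peaks called in all 6 lists by limma 3.58.1 (R 4.3.3, trend, Benjamini-Hochberg over 32748 peaks, threshold 0.05), tested on simulated data. Alternatives were windows of 10 and 100 kb, equally long lists, a floor of 5 on -log10 q, assignment by nearest start, another rank column, a log2 scale, a replicate block and leaving out each sample. The peaks named are each member's promoter peaks, its 3 strongest consensus peaks by mean percentile, genotype-only peaks, peaks passing limma and the smallest p in each direction. Other peaks were named after their values were seen: those at Gata4 (10.3, 15.6, 37.5 and 121 kb), at Gata1 (3.54 kb), at Gata2 (0.328 kb), the Gata5 intron peak and those whose genotypes did not overlap. Members and lists were chosen with earlier results of these data known. The result of 1 marker gene is not reported here.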

Additional observations from a re-analysis of the deposited data

How the results depend on the processing

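Of 150 locus tests under the alternatives, none came under 0.05, which the design does not allow. The difference in peak number at Gata6 turned from 0.667 to -0.667 with a 10 kb window and to -0.333 with lists of equal length. The difference in the percentile of the strongest peak (cKO minus WT) turned at Gata1, where the Hdac6 promoter left the comparison, to 28 with a 10 kb window and with nearest starts. It turned at Gata2 to 1.03 with a 100 kb window, 0.110 with nearest starts and 1.02 with ranks by column 8, at Gata3 to 2.76 with a 100 kb window, and at Gata5 to -6.76 with a 10 kb window, -5.96 with a 100 kb window, -0.0634 with lists of equal length and -4.18 with nearest starts. The cause of the other turns was not tested. The count of peaks with an unadjusted limma p under 0.05 was 1 of 29 with lists of equal length. Over all shared peaks 2.36% were lower and 4.79% higher at that p. With a 10 kb window it was 1 of 16 (2.39% and 4.83%). With a -log10 q of at least 5 it was 2 of 27 (2.32% and 4.60%). Of these, 1 was lower in cKO, the 5′-most Gata4 peak (-0.60). The other, the Gata5 peak at 43.0 kb, was higher in cKO (0.59). The Gata6 peak at 66.9 kb was not among the peaks tested in that setting or with lists of equal length. Negative shifts numbered 14 of 16 at 10 kb and 39 of 54 at 100 kb, where fewer or more peaks were tested. Among named peaks, ranks by column 8 turned the shifts of Gata3 at 0.596 kb (0.07), of Fdft1 at 107 kb (0.08), of the Gata4 internal start (0.14), of Gata5 at 8.62 kb (0.04) and of Gata6 at 9.03 kb (0.04). Scores within GC deciles turned those of Gata2 at 4.22 kb (0.01) and Fdft1 (0.03), and a -log10 q of at least 5 that of Gata3 (0.00). Endodermal excess was 6.81 peaks per 100 kb with a 10 kb window and 3.64 with nearest starts. Promoter calls rose to 5 (Gata2) and 2 (Gata3) of 6 within 500 bp and to 4 and 3 where a peak covered a start, and Gata3 had 0 at the stricter q. One Gata5 peak was cKO-only when 2 of 3 samples sufficed, 1.18% of GATA peaks beside 3.34% of all.

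Leaving out 1 sample turned the difference in peak number at Gata6 (-0.500 to 2.17) and in the strongest peak at Gata5 (-1.02 to 6.68), both negative without WT 1 or without cKO 1. The difference in peak number ran from 0.167 (without WT 1) to 1.67 (without WT 2) at Gata1, from 0.667 (without WT 1) to 2.83 (without cKO 2) at Gata2, from -0.833 (without cKO 1) to 1.17 (without cKO 2) at Gata3, from -1 (without WT 1 or WT 2) to 2.00 (without WT 3) at Gata4, and from 0.167 (without WT 1 or cKO 1) to 2.67 (without WT 3 or cKO 2) at Gata5. Without 1 sample, GATA peaks at an unadjusted limma p under 0.05 numbered 0 (without cKO 3) to 6 (without cKO 2). Without WT 2 it was 1 of 33, beside 1.49% lower and 4.06% higher over all shared peaks. Without WT 3 it was 4 of 32 (3.04% and 5.82%) and without cKO 1 it was 1 of 32 (1.31% and 2.62%). Negative shifts numbered 24 to 29 (70.7% to 81.2%, beside 52.9% to 53.9% of all). Without WT 2, WT 3 or cKO 2, 1 GATA peak (1.18%) was cKO-only, beside 0.930%, 1.91% and 2.55% of all. Otherwise it was 0, beside 0.588% to 1.05% of all. WT-only peaks numbered 0, beside 0.177% to 0.943% of all. The endodermal excess was 4.90 to 5.52. Shifts of named peaks that changed sign ranged from -0.07 to 0.25 (Pcsk1n peak at Gata1), -0.18 to 0.46 (Glod5 peak at Gata1), -0.27 to 0.00 (Gata2 at 4.22 kb), -0.21 to 0.15 (Gata3 at 0.596 kb), -0.24 to 0.02 (Taf3 peak), -0.25 to 0.01 (Fdft1 at 107 kb) and -0.01 to 0.24 (Gata5 at 20.2 kb). The shift of the Gata6 peak at 66.9 kb stayed between -0.80 and -0.52 and that of the 5′-most Gata4 peak between -0.81 and -0.46. The unadjusted p was under 0.05 for the former except without cKO 3, and for the latter without WT 3 or cKO 2 and not without any other sample.

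With the replicate block, 0 of 32 GATA peaks passed (2 of all peaks did), 2 had an unadjusted p under 0.05 and 25 were negative, and the sign-flip tests of the 3 same-numbered pairs gave exact p-values from 0.25, the smallest possible, to 1.00. The numbers did not pair the samples: deviations from the group means of same-numbered samples correlated at -0.27, -0.00 and 0.12. The block changed no call. Peak lists without read counts limit what depth can show: a peak not called is not shown to be closed chromatin.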
